A study of Mus musculus with 16 samples.

Results

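White adipose tissue from Sirt1 knockout mice kept on a low fat diet was compared with the same tissue from wild-type mice on that diet, across all genes of a mouse whole-genome microarray. The comparison rests on 8 of the 16 arrays of the series, 4 knockout and 4 wild type, taken by their labels. Knockout mice carried the FABP4-cre transgene, a Cre recombinase driven by the FABP4 promoter, which is active in adipocytes. The fat of these mice is labelled as having lost Sirt1 in adipocytes. Wild-type mice carried no Cre transgene. All mice were of the C57BL6/J strain, began the diet at 4 weeks of age, ate it for 8 weeks and were 12 weeks old when fat was taken. The other 8 arrays held 4 knockout and 4 wild-type samples from mice fed a high fat diet over the same 8 weeks, and they serve below to show where the low fat comparison differs. No group carried the transgene with an intact Sirt1 gene, so the loss of Sirt1 and the presence of Cre cannot be told apart here. Neither the fat depot nor the number of mice behind an array is stated in the labels, so the p-values cover the spread among these arrays only, which may be technical.

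SIRT1 is a protein deacetylase that uses NAD as a cofactor and acts on histones and on transcription factors and coactivators. In fat cells it is known to act on PPARγ, the nuclear receptor that drives adipocyte differentiation, and on the coactivator PGC-1α. White fat stores triglyceride in adipocytes that sit in a collagen-rich matrix with vessels, progenitor cells, macrophages and lymphocytes. As fat pads enlarge, the matrix is rebuilt, leptin secretion rises and immune cells accumulate, which is well known from diet-induced obesity in mice.

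Expression is given as log2 units of the authors' GCRMA values, so that a difference of 1 is a doubling of signal. Each gene was read from its brightest probe set, and 12078 of 18193 genes were tested, those at 4 or above in 4 or more of the 16 arrays. Differences are knockout minus wild type with the standard error (SE) from limma, and a gene was called at a Benjamini-Hochberg adjusted p under 0.05 over all genes tested. Array medians lay between 4.34 and 4.46, and 2 arrays of one group correlated over all probe sets with r of 0.987 or more. The number of arrays, 4 a group, limits the precision of each value.

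The tissue label was checked against defining markers. The adipocyte hormone Adipoq had a level of 13.48, 13.55, 13.60 and 13.62 in the 4 knockout arrays, against 13.50, 13.68, 13.54 and 13.53 in the 4 wild-type arrays. The 5 measured adipocyte markers averaged 12.84, 12.89, 12.91 and 13.15 in the knockout arrays and 13.08, 13.03, 13.16 and 13.18 in the wild-type arrays. Milk protein genes (Csn2, Wap) and epididymal genes (Lcn5, Adam7) were under 4 in all arrays. Skeletal muscle transcripts varied strongly between arrays of both genotypes. Tnnt3, a muscle troponin, had a level of 7.37, 10.19, 4.86 and 3.73 in the knockout arrays, against 4.86, 4.49, 10.52 and 9.48 in the wild-type arrays. Knockout replicate 2 and wild-type replicates 3 and 4 were therefore above 8, as were 2 high fat arrays. The summed signal of the 5 muscle markers ranged from 10.6 to 12.7 (log2) in knockout and from 9.62 to 12.9 in wild type, and of 20 tested muscle genes 1 was called higher and none lower. The part of this muscle RNA in the results was not tested. Calls that end without these 5 arrays are named where they occur, except for Prf1 and Mcpt4, which were not followed there. Leaving them out sets 3 knockout against 2 wild-type low fat arrays. Of 104 called genes described here, Prf1 and Mcpt4 not included, 23 were not called there. All 23 kept their sign, and 20 had a difference within 1.5 times of that over all arrays. The exceptions were Apoc2, Klrd1 and Ccnb2. Knockout replicate 4 also held the epithelial adhesion gene Cdh1 at 7.10, against 2.43, 2.27 and 2.49 in the other knockout arrays and 2.10 to 2.40 in wild type. The 4 measured epithelial markers summed to 4.68 to 7.47 (log2) in knockout and 4.56 to 4.93 in wild type, and Krt14 among them was under 4 in all arrays.

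Sirt1 itself did not pass the test. Its level was 9.37, 9.21, 9.44 and 8.94 in the knockout arrays and 9.42, 9.88, 9.02 and 9.41 in the wild-type arrays, and the groups overlapped. The difference was -0.19 ± 0.18 (SE, n = 4 arrays each, limma adjusted p = 0.498), with a 95% interval from -0.57 to 0.19. Whether the Sirt1 probe set lies in the deleted exon is unknown here, so this signal does not check the genotype labels. FABP4-Cre leaves Sirt1 intact in cells that do not express the transgene, and how much of the signal came from them was not measured.

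On the low fat diet 2284 of 12078 genes (18.9%) differed between knockout and wild type, with 1410 higher in knockout (11.7%) and 874 lower (7.24%). All counts of called list members below stand beside these shares. A change of at least 2-fold was found for 387 of the genes that rose (3.2% of those tested) and 147 of those that fell (1.22%). The median absolute log2 difference of the called genes was 0.704, against a median signed difference of 0.0367 over all genes tested. The 4 knockout arrays did not overlap the 4 wild-type arrays for 2156 genes (17.9%), of which 1667 were called. The split between directions depended on scaling. With each array centred on its median 1151 genes were higher and 1274 lower, and with quantile normalization 1154 and 1280. Without the 5 arrays with muscle transcripts 845 genes were called, of which 765 were among the 2284. The total was 1426 without knockout replicate 1, 1515 without knockout replicate 2, 1535 without wild-type replicate 1 and 3075 without wild-type replicate 2. The 874 lower calls were 479 and 530 without knockout replicates 1 and 2, and 491 and 1439 without wild-type replicates 1 and 2.

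Ptchd4 and Sfrp5 had the largest rises among genes whose groups did not overlap. Sfrp5, a secreted frizzled-related protein that binds Wnt ligands, was at 11.77, 11.16, 11.45 and 10.57 in knockout fat, against 6.83, 7.37, 6.68 and 7.10 in wild-type fat. The lowest knockout array was more than 3 log2 units above the highest wild-type array. Sfrp5 rose by 4.24 ± 0.21 (18.9-fold, n = 4 arrays each, adjusted p = 1.42e-08). Ptchd4, which encodes a membrane protein with a patched-related domain, had 8.72, 7.90, 7.67 and 8.17 in knockout arrays and 3.00, 3.25, 3.50 and 3.99 in wild-type arrays. All 4 wild-type arrays were under 4, where fold changes depend on the background correction, and with values floored at 4 the rise of 4.68 (adjusted p = 2.59e-08) became 4.11. The other tested probe set of Ptchd4 was also called, with a rise of only 1.04, so the size of the rise depends on the probe set. Klf14, an imprinted Krüppel-like transcription factor gene, had 9.10, 8.61, 8.27 and 8.34 in knockout and 5.10, 4.29, 4.94 and 5.57 in wild type, a rise of 3.61 ± 0.28 (adjusted p = 9.58e-07). Gabrr2, a subunit of GABA-gated chloride channels, had 9.68, 9.05, 9.69 and 9.71 in knockout and 5.53, 6.03, 6.50 and 7.38 in wild type. Its rise was 3.17 ± 0.29 (adjusted p = 4.2e-06).

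Tfr2, a transferrin receptor best known from liver and erythroid cells, rose by 3.82 ± 0.40, with 9.05, 8.30, 7.90 and 8.99 in knockout and 6.08, 4.66, 4.21 and 4.03 in wild type. Bcat1, the cytosolic aminotransferase of branched-chain amino acids, rose by 3.40 ± 0.38. Its level was 8.13, 7.93, 7.42 and 9.94 in knockout, highest in replicate 4, and 5.08, 5.05, 4.92 and 4.79 in wild type. Itgax encodes the integrin CD11c of dendritic cells and of macrophages in inflamed fat. It was at 7.77, 7.10, 7.43 and 7.14 in knockout and 5.25, 3.69, 3.73 and 3.45 in wild type, with wild-type replicate 1 above the other wild-type arrays but below every knockout array. The macrophage elastase gene Mmp12 had 9.41, 8.93, 9.49 and 8.29 in knockout and 6.80, 6.18, 5.72 and 3.95 in wild type, a rise of 3.36 ± 0.59. Prkag3, an AMP-activated protein kinase subunit known mainly from skeletal muscle, had 8.98, 7.71, 8.16 and 9.01 in knockout and 5.31, 5.08, 5.04 and 5.45 in wild type. Wild-type replicates 3 and 4, which held muscle transcripts, were those at 5.04 and 5.45, and the part of muscle RNA in the Prkag3 signal was not tested. Ccn5, a secreted matricellular protein, had 12.20, 11.97, 11.98 and 11.13 in knockout and 5.37, 8.13, 9.40 and 10.72 in wild type, where the 4 arrays spread over more than 5 log2 units.

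Atp1a4, a sodium pump subunit, rose by 3.67 ± 0.29, and Plppr4, a membrane protein of the lipid phosphate phosphatase family, by 3.59 ± 0.32. Lipf, the gastric lipase gene, and Pkp1, a plakophilin of desmosomes, were under 4 in all wild-type arrays. Lipf had 5.62, 5.92, 4.82 and 5.30 in knockout and 2.43, 2.01, 1.84 and 1.96 in wild type, and the rise of 3.36 was 1.41 after flooring at 4. Pkp1 had 5.79, 5.03, 5.25 and 7.35 in knockout and 2.65, 2.67, 2.85 and 2.62 in wild type, and its rise of 3.15 was 1.85 after flooring. Knockout replicate 4, in which Pkp1 was highest, was the array that held Cdh1, and the part of epithelial RNA in this value was not tested. The adjusted p-values of the 15 largest rises ran from 1.42e-08 to 0.0045, and none lost its call under any alternative.

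**Figure D1:**
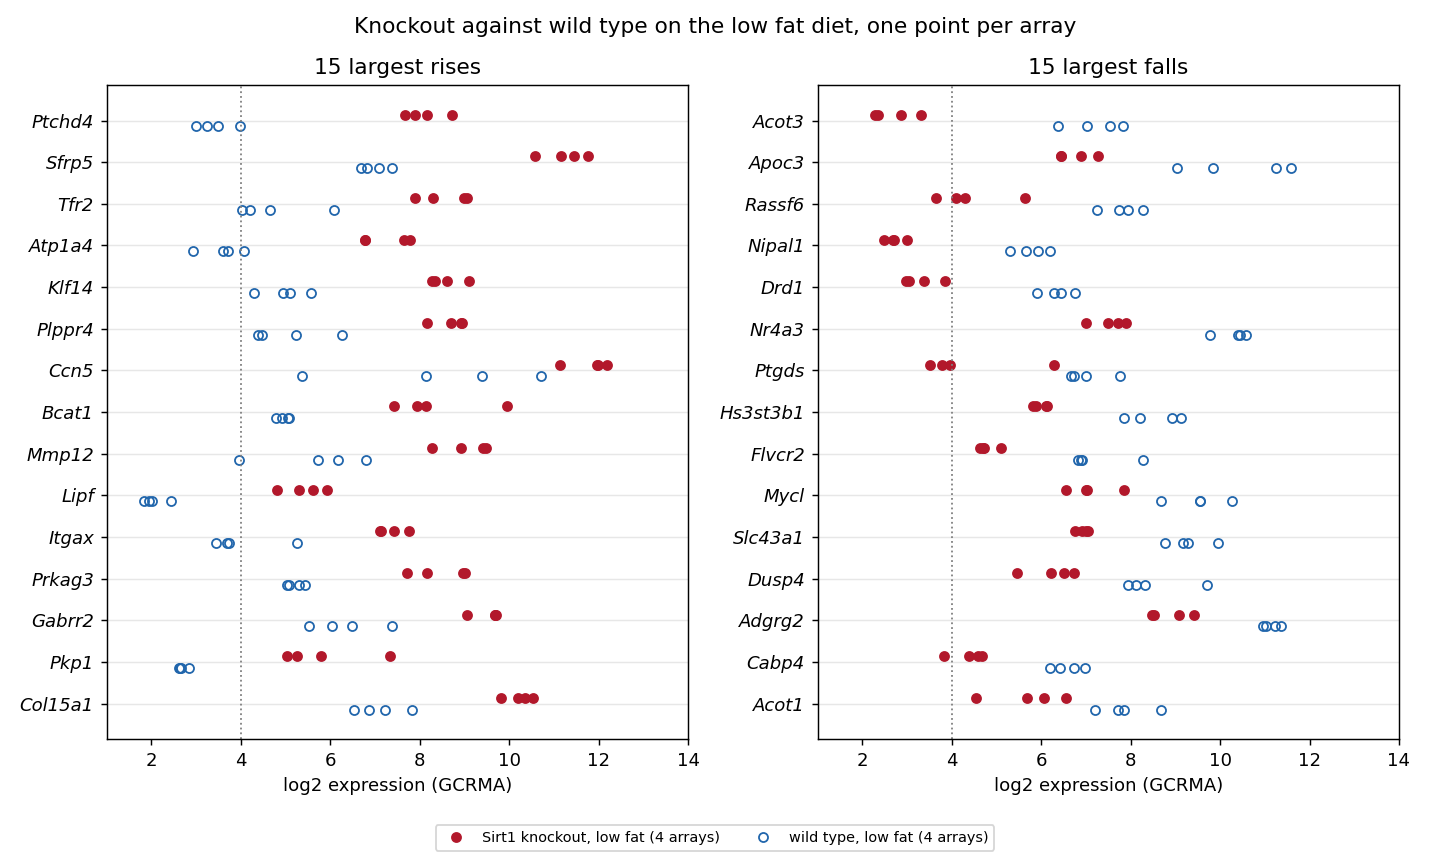
Log2 expression (horizontal axes) of the 15 genes with the largest rises and the 15 with the largest falls, one point per array, with the 4 knockout arrays as filled points above the 4 wild-type arrays as open points for each gene. The dotted line marks a log2 value of 4. The groups do not overlap for any of the 30 genes, which the choice of genes required, and Acot3 lies under 4 in all knockout arrays and Ptchd4 under 4 in all wild-type arrays.

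Acot3 and Apoc3 had the largest falls among genes whose groups did not overlap. Acot3, a peroxisomal acyl-CoA thioesterase, had 2.28, 2.35, 2.87 and 3.33 in knockout and 7.84, 6.38, 7.54 and 7.03 in wild type. It was 22.5-fold lower in knockout (-4.49 ± 0.27 log2 units, adjusted p = 4.49e-08), and the difference was -3.20 with values floored at 4. Apoc3, an apolipoprotein that inhibits lipoprotein lipase and is made mainly by liver and intestine, had 6.45, 6.88, 6.44 and 7.28 in knockout and 11.59, 9.85, 11.24 and 9.04 in wild type. Its difference was -3.67 ± 0.43 (adjusted p = 4.2e-05). Drd1, the D1 dopamine receptor, had 2.98, 3.04, 3.84 and 3.39 in knockout and 5.91, 6.75, 6.45 and 6.29 in wild type. The difference of -3.04 ± 0.20 was -2.35 after flooring. Nr4a3, an orphan nuclear receptor induced quickly by hormones and cyclic AMP, had 7.71, 7.49, 7.91 and 7.002 in knockout and 10.44, 9.78, 10.41 and 10.58 in wild type, a difference of -2.77 ± 0.24 (adjusted p = 2.44e-06).

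Rassf6, a Ras-association domain protein, had 3.64, 4.10, 4.29 and 5.64 in knockout and 8.28, 7.24, 7.75 and 7.95 in wild type (-3.39 ± 0.40). Nipal1, a magnesium transporter-like protein, had 2.68, 3.00, 2.48 and 2.71 in knockout and 5.92, 5.29, 5.66 and 6.21 in wild type (-3.05 ± 0.54, and -1.77 after flooring). Ptgds, a prostaglandin D synthase, was at 3.52, 3.97, 3.78 and 6.29 in knockout and 7.76, 6.67, 6.99 and 6.73 in wild type. Knockout replicate 4 was close to the lowest wild-type array for this gene. The remaining falls among the 15 were smaller, and the choice of genes required that their groups not overlap. Mycl, a transcription factor of the Myc family, had 6.55, 6.99, 7.85 and 7.04 in knockout and 9.54, 9.55, 8.68 and 10.26 in wild type (-2.40 ± 0.45). The MAP kinase phosphatase gene Dusp4 had 6.22, 6.52, 5.47 and 6.74 in knockout and 9.71, 7.95, 8.11 and 8.32 in wild type (-2.29 ± 0.33). Slc43a1, a transporter of large neutral amino acids, had 6.92, 7.04, 6.997 and 6.75 in knockout and 9.28, 9.17, 9.95 and 8.77 in wild type (-2.36 ± 0.21). Adgrg2, an adhesion G protein-coupled receptor, had 8.48, 8.52, 9.09 and 9.42 in knockout and 11.36, 11.23, 10.95 and 11.03 in wild type (-2.27 ± 0.24). The heparan sulfate sulfotransferase gene Hs3st3b1 fell by 2.55, the transporter gene Flvcr2 by 2.44 and the calcium-binding protein gene Cabp4 by 2.22. Of the 15 largest falls 14 kept their call under every alternative, and the exception, Acot1, is described below.

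Genes that follow fat mass, several of them imprinted, were mostly higher in knockout. The list held 18 tested genes, of which 11 rose and 2 fell, and its median difference was 0.53, against 0.0367 over all genes. It was put together knowing that several of its genes respond to diet in these samples, so the count does not support a direction by itself. The mean of the 18 genes was 10.35, 10.35, 10.31 and 10.30 in the knockout arrays and 8.89, 9.20, 8.91 and 9.46 in the wild-type arrays. Mest, an imprinted gene whose expression in fat tracks adipose expansion in mice, had 12.53, 12.35, 11.99 and 12.14 in knockout and 9.71, 9.41, 8.87 and 9.07 in wild type. It rose by 2.99 ± 0.17 (7.94-fold, adjusted p = 2.59e-08). Mest and Klf14 lie near each other on chromosome 6, with 2 protein-coding genes between them in the RefSeq annotation. Of these, Copg2, a coat protein subunit of transport vesicles chosen here for its position after its values were seen, lay between 8.92 and 9.46 in knockout and between 8.04 and 8.71 in wild type (0.74 ± 0.15, adjusted p = 0.00312), and Tsga13 was under 4 in all 8 arrays. Lep, which encodes leptin, was at 12.71, 12.77, 12.80 and 12.98 in knockout and 11.66, 11.74, 11.15 and 12.05 in wild type, a rise of 1.17 ± 0.17 (adjusted p = 0.000199). Npr3, the clearance receptor for natriuretic peptides, had 13.24, 13.14, 13.15 and 12.93 in knockout and 11.42, 12.32, 11.61 and 12.31 in wild type (1.20 ± 0.17). Trhde, a peptidase that degrades thyrotropin-releasing hormone, had 2.20, 2.87, 2.94 and 4.26 in knockout and 4.73, 4.30, 4.23 and 4.14 in wild type. Its difference of -1.28 ± 0.32 (adjusted p = 0.0116) had overlapping groups and became -0.28 after flooring, where the call ended (adjusted p = 0.101). The call of Trhde also ended with the 8 low fat arrays alone (0.054) and without the 5 muscle-bearing arrays (0.105).

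Collagen chains rose together. Of 22 tested chains 15 were higher in knockout and none was lower at the threshold (limma; the other 7 had differences from -0.06 to 1.04), against 11.7% of all genes called higher. The median difference of the 22 was 0.82. Their mean level was 9.35, 9.54, 9.20 and 8.96 in the knockout arrays and 8.47, 8.51, 8.16 and 8.47 in the wild-type arrays, so that the lowest knockout array was above the highest wild-type array. Col15a1, a basement membrane-zone collagen, had 10.52, 10.35, 9.82 and 10.20 in knockout and 7.82, 7.22, 6.86 and 6.53 in wild type and rose by 3.11 ± 0.22 (8.66-fold, adjusted p = 2.58e-07). Col5a3, a minor chain of type V collagen, had 10.50, 10.44, 9.97 and 10.51 in knockout and 8.88, 8.58, 9.07 and 8.30 in wild type (1.65 ± 0.17). The neighbouring type VI collagen genes on chromosome 10 rose by unequal amounts. Col6a2 had 11.74, 12.03, 11.40 and 11.50 in knockout and 10.84, 10.12, 10.14 and 9.97 in wild type (1.40 ± 0.17). Col6a1 had 11.82, 11.99, 11.56 and 11.73 in knockout and 10.92, 10.97, 10.85 and 10.80 in wild type (0.89 ± 0.11). Among 27 matrix proteases and glycoproteins 7 rose and 2 fell. The aggrecanase gene Adamts5 led them by p and had 11.77, 11.70, 11.68 and 11.96 in knockout and 9.78, 10.22, 10.51 and 10.88 in wild type (1.43 ± 0.18, adjusted p = 6.13e-05). The count of 15 collagens was 8 without the 5 arrays with muscle transcripts. In bulk tissue such as this, more cells of a type and more RNA per cell cannot be told apart.

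Stromal and progenitor genes rose in part. Of 20 tested, 8 rose and none fell, with a median of 0.45, against 11.7% of all genes called higher. Pi16, a marker of fibroblast-like progenitors, had 10.54, 10.99, 11.11 and 10.62 in knockout and 8.78, 9.76, 10.22 and 10.18 in wild type (1.08 ± 0.27, adjusted p = 0.0106), with wild-type replicate 1 the lowest. Rgs5, a regulator of G protein signalling typical of pericytes, had 12.37, 12.01, 12.19 and 11.87 in knockout and 11.48, 11.54, 11.58 and 11.48 in wild type (0.59 ± 0.11). The stem and endothelial surface antigen gene Cd34 rose by 0.70 ± 0.14 and lost its call without the muscle-bearing arrays (adjusted p = 0.113). Endothelial genes as a list had 2 of 22 higher and none lower (9.09% called, against 18.9% of all genes). A second Wnt antagonist, Sfrp1, had 8.04, 8.27, 7.78 and 7.81 in knockout and 6.28, 6.65, 6.71 and 7.25 in wild type (1.25 ± 0.19, adjusted p = 0.000422). Of 25 Wnt pathway genes 3 rose and 1 fell (16% called, against 18.9% of all genes). S100b, a calcium-binding protein of glia and also of fat, had 6.76, 6.73, 6.69 and 6.76 in knockout and 4.15, 4.77, 4.63 and 4.67 in wild type (2.18 ± 0.17, adjusted p = 8.6e-07). Emp1, a tetraspan membrane protein, had 12.16, 11.83, 11.81 and 11.77 in knockout and 10.45, 10.90, 10.56 and 10.79 in wild type (1.22 ± 0.16). Sod3, the extracellular superoxide dismutase, rose by 0.68 ± 0.13.

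**Figure D2:**
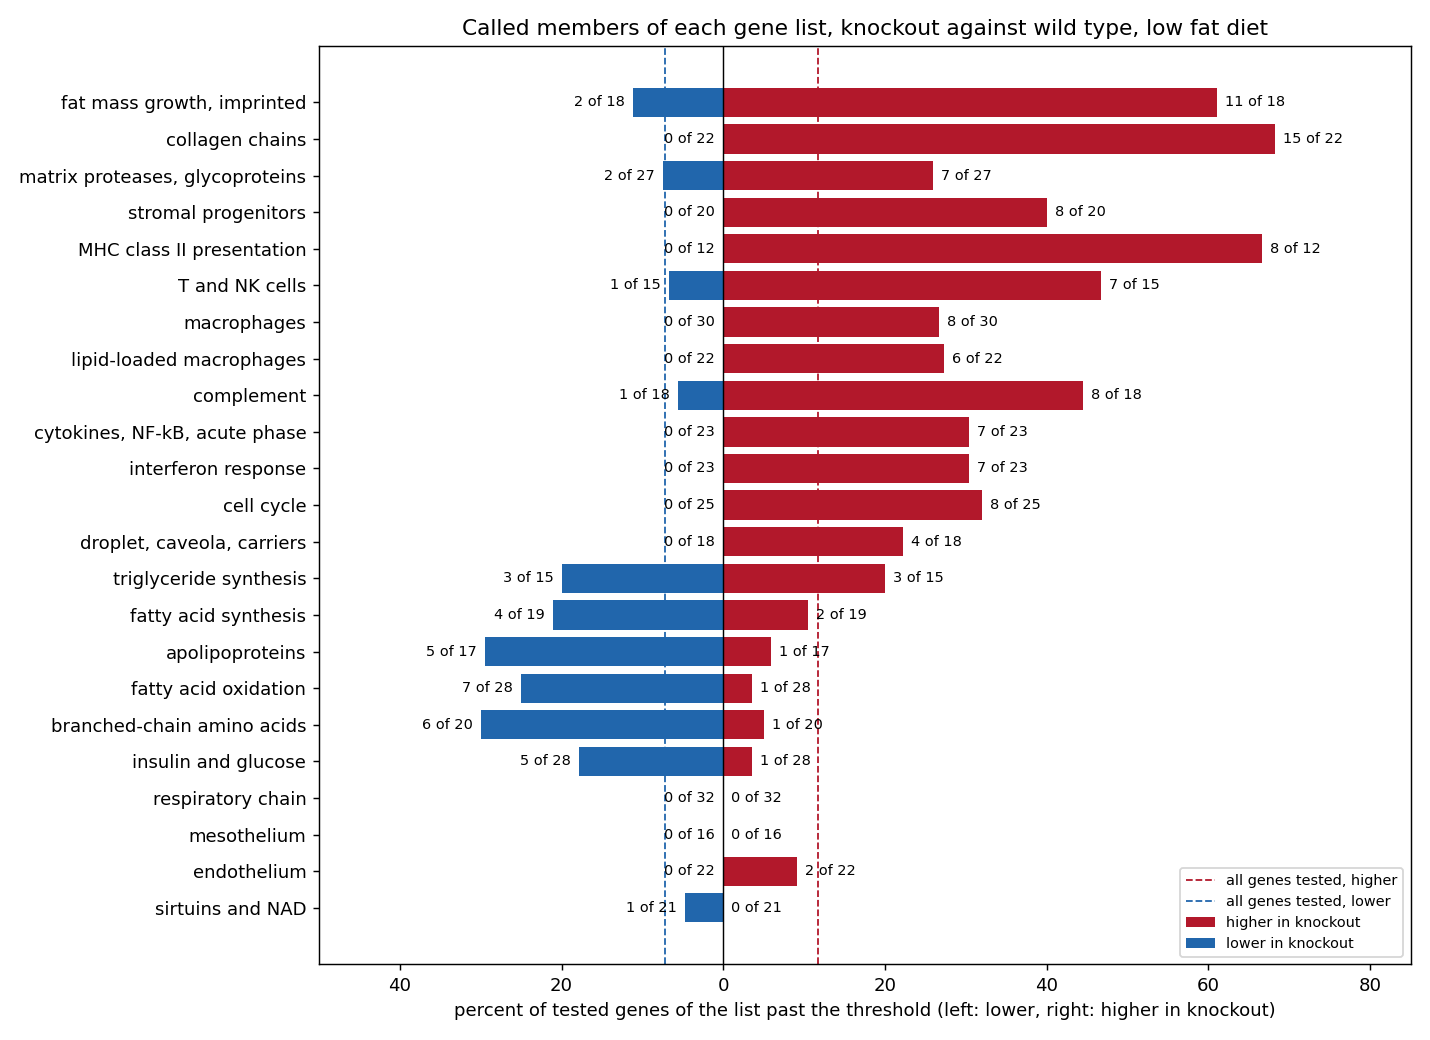
Percent of the tested genes of each list drawn that passed the threshold (horizontal axis), with genes higher in knockout as bars to the right and genes lower in knockout as bars to the left, and the counts printed beside the bars. Dashed lines mark the share of all 12078 tested genes called higher (11.7%) and lower (7.24%). Collagens (15 of 22), MHC class II (8 of 12) and fat mass growth genes (11 of 18) have the longest bars to the right, and branched-chain amino acid genes (6 of 20) the longest to the left among the lists drawn.

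Antigen presentation by MHC class II, which displays peptides to helper T cells, was among the groups with the highest share of calls. Of 12 tested genes 8 rose and none fell, the median difference was 0.62, and 2 rose and 1 fell in the high fat comparison (8.58% and 6.47% of all genes). The 8 include Ctss and Cd83, which are on the list but are not H2 genes. The mean level was 9.58, 9.48, 9.36 and 9.05 in the knockout arrays and 8.70, 8.75, 8.64 and 8.63 in the wild-type arrays, without overlap. The class II genes on chromosome 17 share upstream elements, among them an inverted CCAAT box (ATTGG on the coding strand) known as the Y box. The 150 bases before the RefSeq start site are shown for the 3 class II genes that the results turn on (GRCm38.p6), with CCAAT or its complement ATTGG in capitals on either strand, and also the palindrome TGACGTCA, which does not overlap it.
H2-Aa (chr17:34287824-34287973, minus strand): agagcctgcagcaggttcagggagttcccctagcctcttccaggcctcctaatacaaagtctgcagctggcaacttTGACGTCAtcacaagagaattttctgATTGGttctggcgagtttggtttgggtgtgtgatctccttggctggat
H2-DMb2 (chr17:34145099-34145248, plus strand): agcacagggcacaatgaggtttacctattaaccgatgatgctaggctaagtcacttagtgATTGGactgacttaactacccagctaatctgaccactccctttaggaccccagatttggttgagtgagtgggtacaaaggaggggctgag
H2-DMa (chr17:34122682-34122831, plus strand): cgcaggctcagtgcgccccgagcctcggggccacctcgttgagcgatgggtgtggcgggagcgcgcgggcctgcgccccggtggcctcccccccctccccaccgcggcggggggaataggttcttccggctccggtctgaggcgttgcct
The CCAAT letters begin at position -48 from the start site in H2-Aa and at -90 in H2-DMb2, and the window of H2-DMa does not hold them. They occur in 25.3% of the 27025 promoter windows of this length in the RefSeq table, and TGACGTCA, found in H2-Aa at -74, in 1.44%. H2-Aa, the α chain of the presenting I-A molecule, had 12.21, 12.19, 12.20 and 11.88 in knockout and 11.37, 11.62, 11.51 and 11.60 in wild type (0.59 ± 0.11, adjusted p = 0.00217). H2-DMa and H2-DMb2 encode chains of the DM molecule that loads peptides. H2-DMa, whose window lacks the letters, had 8.70, 8.67, 8.53 and 7.90 in knockout and 6.99, 7.42, 7.57 and 7.10 in wild type (1.18 ± 0.18, adjusted p = 0.000307). H2-DMb2 had 8.20, 8.21, 8.66 and 7.63 in knockout and 7.48, 7.17, 7.21 and 6.77 in wild type (1.02 ± 0.23, adjusted p = 0.00618). H2 genes have near-identical relatives, which probe sets may not separate. Without the 5 muscle-bearing arrays 1 gene of the list was called higher, and H2-Aa (difference 0.60, adjusted p = 0.0659) and H2-DMb2 (0.84, adjusted p = 0.149) were not called, while H2-DMa was (1.17, adjusted p = 0.0168).

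T and NK cell genes rose in part. Of 15 tested 7 rose and 1 fell, with a median of 0.65, against 11.7% of all genes called higher and 7.24% lower. The gene that fell was the perforin gene Prf1 (-0.68). Gzma, the granzyme A gene of cytotoxic lymphocytes, had 7.70, 7.45, 6.82 and 5.96 in knockout and 5.66, 5.01, 6.14 and 4.00 in wild type (1.78 ± 0.39, adjusted p = 0.00486), and the groups overlapped. Klrd1, the NK receptor CD94, had 7.20, 7.35, 6.67 and 6.30 in knockout and 5.81, 6.19, 5.53 and 4.86 in wild type (1.29 ± 0.27), and the adhesion gene Cd2 had 6.97, 6.62, 6.79 and 6.16 in knockout and 5.61, 5.97, 5.80 and 5.42 in wild type (0.94 ± 0.20). The T cell receptor complex genes Cd3e and Cd3g differed by 0.24 each and did not pass. The count of 7 was 4 without knockout replicate 1 or 2 or wild-type replicate 4. Without the muscle-bearing arrays 1 gene of the list was called higher, and Klrd1 (difference 0.73, adjusted p = 0.152) and Cd2 (0.85, adjusted p = 0.102) were not.

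Macrophage genes rose in part. Of 30 tested 8 were higher and none lower, and of 22 genes of lipid-loaded macrophages 6 were higher and none lower. Over all genes 11.7% were called higher. The monocyte recruitment receptor Ccr2 had 10.11, 10.38, 10.11 and 9.79 in knockout and 8.38, 9.48, 9.23 and 9.24 in wild type (1.01 ± 0.20, adjusted p = 0.00227). Adgre1, an adhesion receptor gene used as a macrophage marker, had 10.70, 10.71, 10.43 and 9.88 in knockout and 9.14, 10.00, 9.20 and 9.34 in wild type (1.01 ± 0.21), with overlap through wild-type replicate 2. Olr1, a scavenger receptor for oxidised lipoproteins, had 4.75, 4.44, 4.65 and 5.69 in knockout and 2.49, 2.98, 2.43 and 2.41 in wild type. All 4 wild-type arrays were under 4, and the rise of 2.31 was 0.88 after flooring. The lysosomal protease gene Ctss had 12.16, 12.02, 12.03 and 11.69 in knockout and 10.85, 11.60, 11.26 and 11.24 in wild type (0.74 ± 0.17). Adgre1 (adjusted p = 0.152) and Ctss (0.103) were not called without the muscle-bearing arrays. The macrophage growth factor receptor gene Csf1r overlapped between the groups, with 10.88, 11.17, 11.19 and 11.30 in knockout and 11.06, 10.64, 11.40 and 11.45 in wild type. The calprotectin subunit S100a8, from neutrophils and monocytes, had 8.35, 7.76, 6.54 and 8.89 in knockout and 5.80, 4.28, 5.35 and 5.12 in wild type (2.75 ± 0.41, adjusted p = 0.000347). Its partner S100a9 had 5.14, 5.09, 4.68 and 8.89 in knockout and 5.55, 4.88, 6.62 and 6.37 in wild type, with overlap. Naip2, an inflammasome sensor with near-identical neighbours, rose by 0.94 ± 0.22 and was not called without the muscle-bearing arrays (adjusted p = 0.0799).

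Complement and acute-phase genes, many of which fat cells secrete, rose in part. Of 18 complement genes 8 were higher and 1 lower, with a median of 0.52, against 11.7% of all genes called higher. Cfb, factor B of the alternative pathway, had 11.07, 10.82, 10.75 and 10.84 in knockout and 9.68, 9.70, 10.01 and 9.81 in wild type (1.07 ± 0.13, adjusted p = 6.2e-05). C6, a component of the membrane attack complex, had 10.08, 10.37, 9.57 and 10.62 in knockout and 8.96, 8.91, 9.39 and 9.29 in wild type (1.02 ± 0.20). Of 23 cytokine, NF-κB and acute-phase genes 7 rose and none fell. Tnfaip3, the A20 inhibitor of NF-κB signalling, had 8.21, 8.05, 7.95 and 7.62 in knockout and 6.77, 7.22, 6.84 and 6.66 in wild type (1.08 ± 0.15, adjusted p = 0.000209). The protease inhibitor gene Serpina3n had 11.16, 11.47, 11.08 and 11.57 in knockout and 9.40, 9.73, 10.60 and 10.74 in wild type (1.20 ± 0.24). Lbp, which encodes lipopolysaccharide-binding protein, had 11.48, 11.54, 11.13 and 11.80 in knockout and 9.58, 10.01, 10.31 and 10.11 in wild type (1.48 ± 0.16, adjusted p = 1.86e-05).

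Of 27 chemokines and receptors 4 rose and 1 fell (18.5% called, against 18.9% of all genes). Ccl24, an eotaxin that attracts eosinophils, had 6.30, 6.53, 6.29 and 6.50 in knockout and 4.64, 5.27, 5.44 and 5.70 in wild type (1.14 ± 0.22, adjusted p = 0.00197). Of 11 tested genes of neutrophils, mast cells and eosinophils 4 rose and 2 fell. The mast cell protease gene Mcpt4 was among the 4 that rose. It had 8.37, 8.81, 8.35 and 8.03 in knockout and 5.98, 8.21, 6.29 and 8.06 in wild type, with overlap. Siglecf, a lectin of mouse eosinophils, had 5.06, 5.42, 5.19 and 3.87 in knockout and 2.91, 2.84, 2.80 and 2.97 in wild type, a rise of 2.00 that was 0.92 after flooring. Rnase2a, an eosinophil-associated ribonuclease, had 5.37, 5.41, 7.01 and 7.26 in knockout and 3.50, 3.07, 3.76 and 4.34 in wild type (2.59 ± 0.53, adjusted p = 0.00332). The 2 that fell were Elane, the neutrophil elastase gene, with 3.56, 3.43, 3.52 and 3.64 in knockout and 5.11, 4.33, 5.24 and 4.28 in wild type (-1.20 ± 0.19, and -0.74 after flooring), and the mast cell and progenitor receptor gene Kit, with 4.85, 4.70, 5.07 and 4.42 in knockout and 5.88, 6.06, 4.87 and 6.71 in wild type (-1.12 ± 0.33, adjusted p = 0.0263). The Kit groups overlapped, and its call ended without knockout replicate 1, 2 or 4 or wild-type replicate 1 or 4 (adjusted p up to 0.0766) and with the 8 low fat arrays alone (0.0607). The monocyte chemoattractant gene Ccl12 had 5.25, 7.19, 4.40 and 5.83 in knockout and 3.28, 3.50, 3.57 and 4.67 in wild type, with overlap, and rose by 1.91 ± 0.42. Interferon response genes had 7 of 23 higher and none lower, against 11.7% of all genes called higher. The RNA sensor gene Ddx58 had 7.19, 7.43, 7.30 and 7.23 in knockout and 6.42, 6.50, 6.53 and 6.89 in wild type (0.70 ± 0.12), and the nucleic acid sensor gene Zbp1 had 7.65, 7.46, 6.91 and 6.69 in knockout and 5.78, 6.03, 6.43 and 5.97 in wild type (1.13 ± 0.20).

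Cell cycle genes were higher for 8 of 25 tested and lower for none, with a median of 0.49, against 11.7% of all genes called higher. Rrm2, the small subunit of ribonucleotide reductase, had 9.85, 9.53, 9.76 and 8.61 in knockout and 8.19, 8.04, 7.56 and 7.63 in wild type (1.58 ± 0.24, adjusted p = 0.000357). Cdc6, needed to license replication origins, had 6.14, 6.03, 5.87 and 6.87 in knockout and 4.74, 4.13, 4.68 and 4.71 in wild type (1.66 ± 0.21, adjusted p = 6.95e-05). The mitotic cyclin gene Ccnb2 lay near the lower end of the scale, with 3.50, 4.07, 3.58 and 3.38 in knockout and 2.97, 3.12, 2.64 and 2.48 in wild type. Its difference of 0.83 became 0.02 after flooring, and the call ended (adjusted p = 0.953), as it did without the muscle-bearing arrays (0.44, adjusted p = 0.123).

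**Figure D3:**
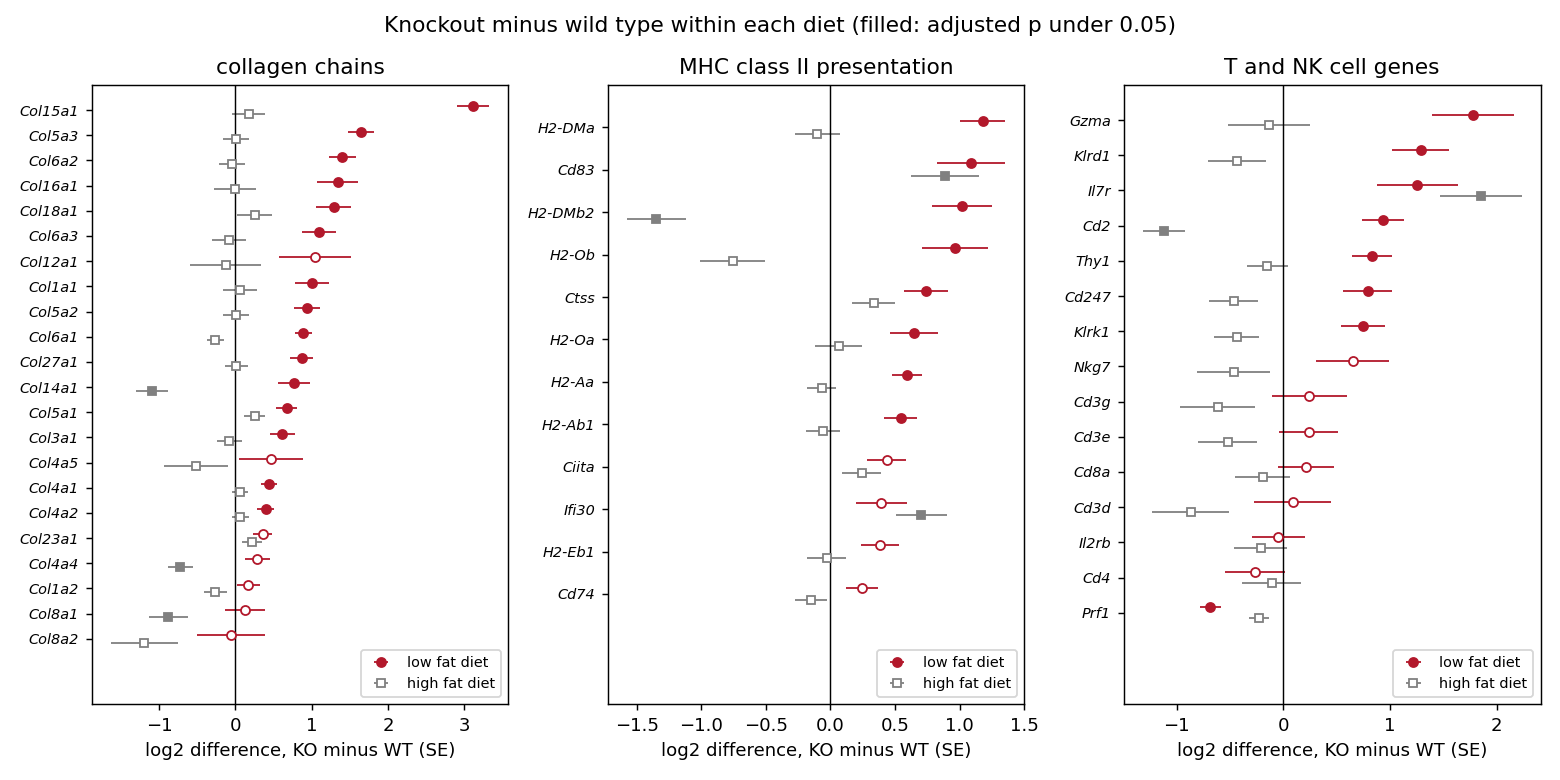
Log2 difference between knockout and wild type (horizontal axes, bars are SE, n = 4 arrays a group) for each tested collagen chain, MHC class II gene and T or NK cell gene, with the low fat diet as circles above the high fat diet as squares, and filled symbols for an adjusted p under 0.05. Col15a1 leads the collagens at 3.11 on the low fat diet and has 0.18 on the high fat diet, and H2-DMb2 has 1.02 on the low fat diet and -1.35 on the high fat diet.

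Genes of fatty acid breakdown fell in part. Of 28 fatty acid oxidation genes 7 were lower and 1 was higher, with a median of -0.26, against 7.24% of all genes called lower. Neighbouring acyl-CoA thioesterase genes on chromosome 12, whose products release free fatty acids from acyl-CoA, are shown because 3 of them were called together. The 150 bases before the RefSeq start site (GRCm38.p6, plus strand) carry CCAAT or its complement ATTGG in capitals on either strand.
Acot1 (chr12:84009352-84009501): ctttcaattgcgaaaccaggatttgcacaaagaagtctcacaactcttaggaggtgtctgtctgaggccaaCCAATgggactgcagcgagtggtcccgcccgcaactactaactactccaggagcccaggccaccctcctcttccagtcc
Acot4 (chr12:84038229-84038378): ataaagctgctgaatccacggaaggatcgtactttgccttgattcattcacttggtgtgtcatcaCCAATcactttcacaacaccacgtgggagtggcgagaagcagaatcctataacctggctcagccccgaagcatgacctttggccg
Acot3 (chr12:84051994-84052143): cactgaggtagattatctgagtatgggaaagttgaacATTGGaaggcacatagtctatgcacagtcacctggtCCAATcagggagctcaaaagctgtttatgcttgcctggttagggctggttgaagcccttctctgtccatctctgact
The letters begin at -79 in Acot1, at -85 in Acot4, and at -113 and -77 in Acot3, and occur in 25.3% of all windows of this length. Besides Acot3, described above, Acot4, a peroxisomal enzyme for dicarboxylic acyl-CoA, had 5.32, 5.69, 6.31 and 6.68 in knockout and 8.04, 7.05, 7.49 and 7.84 in wild type (-1.60 ± 0.25, adjusted p = 0.000454). The cytosolic Acot1 had 4.54, 5.68, 6.07 and 6.54 in knockout and 8.69, 7.86, 7.72 and 7.20 in wild type (-2.16 ± 0.61, adjusted p = 0.0218). Its call ended without knockout replicate 1 (adjusted p = 0.0812) or 2 (0.051), without wild-type replicate 1 (0.074) and without the muscle-bearing arrays (0.112). Acot2, the mitochondrial neighbour, differed by -0.32 ± 0.19 and did not pass (adjusted p = 0.269). These genes are close paralogs, and probe sets may not separate them fully. Ehhadh, the peroxisomal bifunctional enzyme, had 9.30, 9.04, 9.47 and 9.67 in knockout and 11.03, 10.41, 10.29 and 10.19 in wild type (-1.10 ± 0.19, adjusted p = 0.00114). The count of 7 was 4 with the 8 low fat arrays alone, 3 without the muscle-bearing arrays, 3 without knockout replicate 2 or wild-type replicate 1, 4 without knockout replicate 1 and 12 without wild-type replicate 2.

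Fatty acid and triglyceride synthesis genes moved in both directions. Of 19 fatty acid synthesis genes 2 rose and 4 fell. Scd2, a stearoyl-CoA desaturase, had 11.53, 11.47, 11.06 and 11.83 in knockout and 10.53, 10.58, 10.34 and 10.20 in wild type (1.06 ± 0.14, adjusted p = 0.000121). Pnpla3, a lipid droplet protein with lipase and acyltransferase activity, had 8.67, 7.34, 7.85 and 9.04 in knockout and 6.74, 5.43, 5.38 and 4.34 in wild type and rose by 2.75 ± 0.41 (6.73-fold, adjusted p = 0.000347). Among the falls, Aacs, which activates acetoacetate for lipid synthesis, had 8.53, 8.50, 8.69 and 8.86 in knockout and 9.57, 9.30, 9.38 and 9.29 in wild type (-0.74 ± 0.13, adjusted p = 0.00107). Acacb, the mitochondrial acetyl-CoA carboxylase, had 10.74, 10.90, 11.34 and 12.19 in knockout and 12.70, 12.04, 12.85 and 12.58 in wild type (-1.25 ± 0.26), with knockout replicate 4 inside the wild-type range. Mlxipl, which encodes the carbohydrate-responsive factor ChREBP, had 9.50, 9.26, 9.65 and 10.03 in knockout and 10.89, 10.04, 10.60 and 10.13 in wild type (-0.80 ± 0.18). Of 15 triglyceride synthesis genes 3 rose and 3 fell. Mogat2, a monoacylglycerol acyltransferase, had 6.34, 6.24, 5.80 and 6.31 in knockout and 4.06, 4.04, 4.60 and 5.00 in wild type (1.75 ± 0.25). Gpam, which catalyses the first step of glycerolipid synthesis, fell by 0.60 ± 0.14, and the phosphatidate phosphatase gene Lpin1 by 0.69 ± 0.15. Without the muscle-bearing arrays the falls of Acacb (adjusted p = 0.141), Mlxipl (0.0858), Gpam (0.177) and Lpin1 (0.103) were not called. Mlxipl was also not called with the 8 low fat arrays alone (adjusted p = 0.0514). Cavin3, a caveola coat protein, had 9.01, 9.30, 8.96 and 9.52 in knockout and 7.84, 7.33, 7.77 and 7.92 in wild type (1.48 ± 0.17, adjusted p = 2.61e-05), and of 18 droplet, caveola and carrier genes 4 rose and none fell.

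Apolipoprotein and cholesterol genes shifted in part. Of 17 apolipoprotein and lipoprotein genes 1 rose and 5 fell, with Apoc3 the largest fall. Apoc2, the activator of lipoprotein lipase, had 8.66, 8.38, 8.60 and 9.41 in knockout and 9.51, 9.35, 10.46 and 10.24 in wild type (-1.13 ± 0.24), with overlap through knockout replicate 4, and it was not called without the muscle-bearing arrays (difference -0.54, adjusted p = 0.175). Npc1, which exports cholesterol from lysosomes, had 8.11, 8.09, 8.44 and 8.35 in knockout and 9.87, 9.19, 10.02 and 9.70 in wild type (-1.45 ± 0.18, adjusted p = 6.52e-05). Of 18 cholesterol synthesis genes 2 rose and 3 fell. Dhcr7, the last enzyme of cholesterol synthesis, had 9.94, 9.88, 9.78 and 10.18 in knockout and 9.29, 9.33, 9.48 and 9.04 in wild type (0.66 ± 0.12).

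Branched-chain amino acid breakdown, an adipocyte pathway, had 6 of 20 genes lower and 1 higher, with a median of -0.25. The exception was Bcat1, the cytosolic enzyme described above. The mitochondrial aminotransferase Bcat2 moved the other way, with 8.61, 8.70, 8.92 and 9.87 in knockout and 10.69, 9.69, 10.65 and 9.95 in wild type (-1.22 ± 0.25), and knockout replicate 4 overlapped wild type. Ppm1k, the phosphatase that activates branched-chain ketoacid dehydrogenase, had 7.99, 8.19, 8.28 and 8.45 in knockout and 9.02, 8.79, 8.80 and 8.67 in wild type (-0.59 ± 0.13). Neither Bcat2 (difference -1.05, adjusted p = 0.0985) nor Ppm1k (-0.66, adjusted p = 0.0591) was called without the muscle-bearing arrays, where the count of 6 became 0. It was 2 with the 8 low fat arrays alone, 2 without knockout replicate 1 or 2 or wild-type replicate 1 or 3, and 3 without knockout replicate 3, high fat knockout replicate 3 or high fat wild-type replicate 2 or 3.

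Insulin signalling genes had 5 of 28 lower and 1 higher, against 7.24% of all genes called lower and 11.7% higher. Insr, the insulin receptor gene, had 10.17, 10.37, 10.53 and 10.72 in knockout and 11.36, 10.99, 11.35 and 11.42 in wild type (-0.84 ± 0.13, adjusted p = 0.000419). Irs2, an insulin receptor substrate, had 6.62, 6.45, 6.42 and 6.61 in knockout and 8.04, 7.30, 7.15 and 7.21 in wild type (-0.90 ± 0.19). The gene that rose, Grb14, encodes an inhibitor of insulin receptor signalling, and it had 7.03, 7.92, 6.94 and 7.30 in knockout and 6.08, 5.59, 5.50 and 6.13 in wild type (1.47 ± 0.25, adjusted p = 0.00088). Insr, Irs2 and Grb14 kept their calls under every alternative.

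Of 20 genes for proteins that SIRT1 is known to act on, 3 fell and none rose. This is 15% called, below the 18.9% of all genes called, of which 7.24% were lower and 11.7% higher. Pparg had 11.53, 11.59, 11.51 and 11.56 in knockout and 12.50, 11.95, 12.29 and 12.35 in wild type, a difference of -0.72 ± 0.15 (adjusted p = 0.0038) without overlap. The 4 knockout arrays spanned less than 0.1 log2 units. Without the muscle-bearing arrays the difference was -0.69 and was not called (adjusted p = 0.0991). Ppargc1a, the gene of PGC-1α, had 5.13, 5.03, 6.20 and 5.75 in knockout and 7.45, 6.44, 6.16 and 6.09 in wild type (-1.01 ± 0.28, adjusted p = 0.0213). Its groups overlapped, and the call ended without knockout replicate 1 (adjusted p = 0.075) or 2 (0.0751), without wild-type replicate 1 (0.0654), with the 8 low fat arrays alone (0.0917) and without the muscle-bearing arrays (0.0508). Of 21 sirtuin and NAD genes only the mitochondrial NAD kinase gene Nadk2 was called, with 8.36, 8.29, 8.02 and 7.83 in knockout and 9.24, 9.36, 8.88 and 8.49 in wild type (-0.87 ± 0.19).

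The brown fat list had 2 of 13 genes higher and 2 lower, against 11.7% of all genes called higher and 7.24% lower. The uncoupling protein gene Ucp1, the defining marker, overlapped between the groups, with 9.10, 9.68, 11.12 and 11.84 in knockout and 10.35, 10.05, 10.27 and 7.80 in wild type. Dio2, the deiodinase that activates thyroid hormone, had 4.12, 4.70, 5.40 and 6.32 in knockout and 3.98, 3.13, 2.94 and 2.91 in wild type (1.90 ± 0.35, or 1.14 after flooring). Otop1, a proton channel, had 8.28, 8.37, 9.77 and 9.47 in knockout and 8.10, 7.92, 6.77 and 6.21 in wild type (1.72 ± 0.38). Neither Dio2 (adjusted p = 0.0544) nor Otop1 (0.0682) was called without the muscle-bearing arrays. Kcnk3, a potassium channel of brown adipocytes, had 9.88, 9.77, 9.80 and 10.32 in knockout and 11.48, 10.54, 11.26 and 10.40 in wild type and fell (-0.98 ± 0.21). The clock repressor gene Nr1d1 (REV-ERBα) had 8.53, 8.77, 8.25 and 8.46 in knockout and 10.06, 9.36, 9.76 and 9.97 in wild type (-1.29 ± 0.26, adjusted p = 0.00291), and of 17 clock genes 1 rose and 1 fell. Among 17 immediate early genes 3 rose and 2 fell, Nr4a3 being the largest fall. The AP-1 subunit gene Jun rose by 0.79 ± 0.15 and was not called without the muscle-bearing arrays (adjusted p = 0.0666).

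The counts of the following lists stand beside the 11.7% of all genes called higher and the 7.24% called lower. Mature adipocyte genes had 2 of 23 higher, Lep among them, and 3 lower, Pparg among them. Of 17 lipolysis genes 3 were higher, Npr3 among them, and 2 lower. Adipokine genes had 2 of 13 higher (Lep and Sfrp5) and 1 lower, nuclear receptors 1 of 20 higher and 2 lower (Nr4a3 and Pparg), and adipogenic transcription factors 1 of 20 higher (Klf14) and 1 lower. Among 24 genes of the unfolded protein response 1 was higher and 3 were lower, among 28 antioxidant genes 3 were higher, Sod3 among them, and 1 lower, and among 22 lysosomal genes 2 were higher and none lower. Toll-like receptor genes had 3 of 18 higher, Lbp among them, and none lower, inflammasome genes 4 of 17 higher, Naip2 among them, and none lower, and TGF-β and BMP genes 3 of 26 higher and none lower. Of 17 citric acid cycle genes 1 was lower and none higher.

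Respiratory chain and mesothelial genes had no member past the threshold. None of 32 respiratory chain genes passed the threshold in the limma fit, and their differences ran from -0.42 to 0.23 with a median of -0.14, against 18.9% of all genes called. The smallest p was that of Ndufa9, a complex I subunit, with 11.37, 11.59, 11.60 and 11.88 in knockout and 12.00, 11.78, 12.21 and 11.88 in wild type (-0.36 ± 0.13, adjusted p = 0.061). Uqcrfs1, of complex III, differed by -0.27 ± 0.13 (adjusted p = 0.148). The unadjusted p was under 0.05 for 2 of the 32. None of 16 genes of the mesothelium, the lining of visceral fat pads, passed either (0 of 16 at an unadjusted p under 0.05), with Muc16 at -0.50 ± 0.34 and Slpi at 0.44 ± 0.31. In the high fat comparison 12 of these 16 were lower in knockout, against 6.47% of all genes.

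The low fat genotype difference was then set against the high fat genotype difference, which rests on 8 other arrays. On the high fat diet 1818 genes (15.1%) were called, with 1036 higher in knockout (8.58%) and 782 lower (6.47%). Both comparisons called 482 genes, which is 21.1% of the low fat calls and 26.5% of the high fat calls. Of these 250 were higher in knockout on both diets, 111 lower on both, and 121 had opposite signs, 97 of them higher on low fat and lower on high fat. The test of the difference between the 2 genotype effects, low fat minus high fat, called 1569 of 12078 genes (13%), of which 951 were positive (7.87%) and 618 negative (5.12%), and 889 of the 2284 low fat calls (38.9%) were among them. The count of 1569 was 2382 without wild-type low fat replicate 2.

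For several of the leading genes the low fat knockout level lay near both high fat levels. Sfrp5 averaged 11.24 ± 0.51 in low fat knockout and 6.996 ± 0.30 in low fat wild type (SD, n = 4 each), while on the high fat diet it averaged 12.06 ± 0.13 in knockout and 12.01 ± 0.22 in wild type. The genotype effects differed by 4.19 ± 0.30 (adjusted p = 1.57e-06). Ptchd4 averaged 8.11 in low fat knockout and 3.44 in low fat wild type, and 8.44 in high fat knockout and 8.40 in high fat wild type (difference of effects 4.64 ± 0.36). Mest averaged 12.25 in low fat knockout and 9.26 in low fat wild type, and 12.16 in high fat knockout and 12.62 in high fat wild type (difference of effects 3.45 ± 0.24, adjusted p = 1.57e-06). For Klf14 the averages were 8.58 in knockout and 4.97 in wild type on low fat, and 8.03 in knockout and 8.88 in wild type on high fat (4.46 ± 0.40). Acot3 went the other way, averaging 2.71 in low fat knockout and 7.20 in low fat wild type, with 1.62 in high fat knockout and 1.81 in high fat wild type (-4.30 ± 0.38, adjusted p = 9.03e-06). Drd1 averaged 3.31 in low fat knockout and 6.35 in low fat wild type, and 3.26 in high fat knockout and 2.96 in high fat wild type (-3.33 ± 0.28). Nr4a3 averaged 7.53 in knockout and 10.30 in wild type on low fat, and 6.98 in knockout and 6.99 in wild type on high fat (-2.76 ± 0.34). These genes were named for their low fat difference or its contrast with the high fat one, so their pattern over the groups is a description. Acot3 and Drd1 were under 4 in all 12 arrays outside low fat wild type and passed the filter through that group alone. Outside that group Nipal1 reached 4 only in high fat wild-type replicate 4 (6.20). Ptgds (6.29) and Trhde (4.26) reached it there only in low fat knockout replicate 4. Nipal1, Ptgds and Trhde would therefore not have passed the filter without the low fat wild-type arrays.

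**Figure D4:**
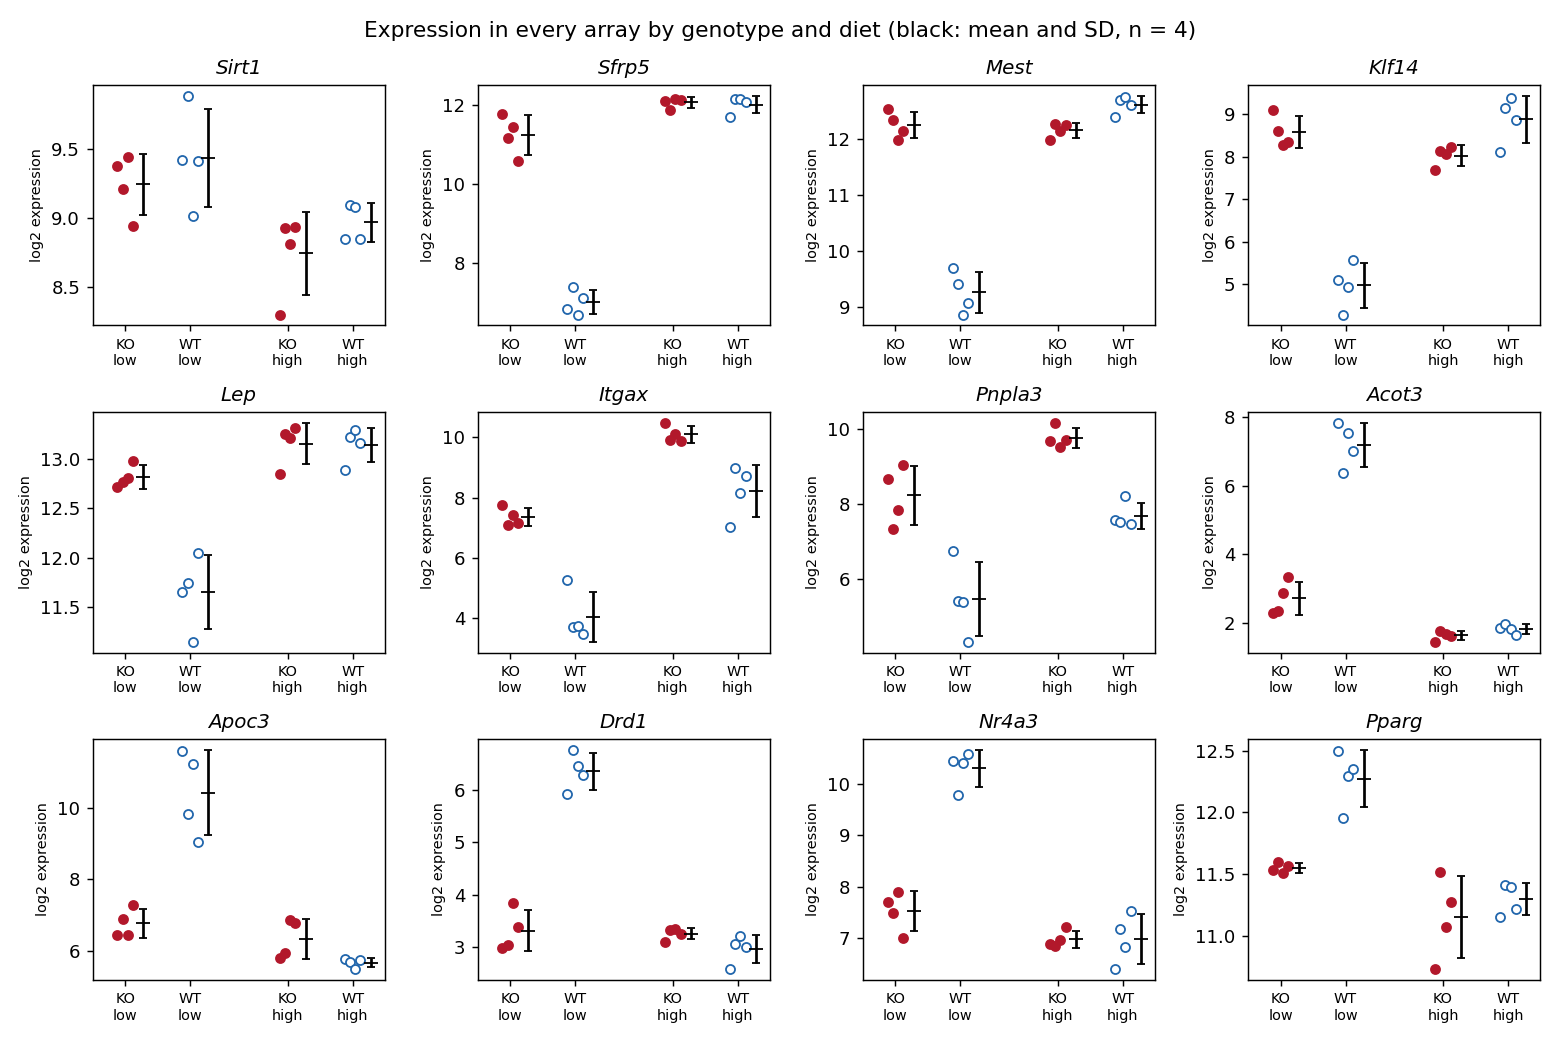
Log2 expression in each array (vertical axes) for 12 genes, with low fat knockout, low fat wild type, high fat knockout and high fat wild type from left to right, filled points for knockout and open points for wild type, and the mean with SD in black (n = 4). For every gene drawn other than Sirt1, all of them named through a low fat call, the 4 low fat wild-type arrays lie apart from the other 12. Sirt1 overlaps between genotypes on the low fat diet.

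Of the 15 largest rises 11 differed from the high fat effect, and 3 (Tfr2, Lipf and Itgax) rose on both diets, while Gabrr2 was higher in knockout on low fat and lower on high fat (-1.16 ± 0.29, adjusted p = 0.0151). Of the 15 largest falls 9 differed from the high fat effect and 7 fell on both diets, among them Adgrg2, with -2.27 on low fat and -1.97 ± 0.24 on high fat. Abat, the GABA transaminase gene, had 10.45, 10.39, 10.49 and 9.96 in low fat knockout and 8.55, 8.52, 8.33 and 8.76 in low fat wild type (1.78 ± 0.18). On the high fat diet it went the other way (-1.23 ± 0.18, adjusted p = 0.00047). Rap1gap2, a GTPase-activating protein for Rap1, had 8.97, 8.80, 8.89 and 9.16 in low fat knockout and 7.41, 7.55, 7.62 and 7.71 in low fat wild type (1.38 ± 0.13), and -0.58 ± 0.13 on high fat. Gucd1 had 9.14, 9.25, 8.95 and 9.58 in low fat knockout and 11.18, 10.55, 11.11 and 10.55 in low fat wild type (-1.62 ± 0.17), and 0.19 ± 0.17 on high fat (adjusted p = 0.49). Apoc2 and Npc1 fell in knockout on low fat and rose on high fat, by 1.38 ± 0.24 for Apoc2 (adjusted p = 0.00135) and by 0.74 ± 0.18 for Npc1 (adjusted p = 0.0114).

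Immune genes did not share one pattern across diets. Rnase2a, which rose on low fat, had 2.85, 3.48, 3.93 and 3.87 in high fat knockout and 8.11, 7.86, 6.25 and 9.08 in high fat wild type, so that the effects differed by 6.89 ± 0.75 (adjusted p = 7.61e-05). H2-DMb2 and Cd2 were likewise higher in knockout on low fat and lower on high fat, by -1.35 for H2-DMb2 (adjusted p = 0.00131) and -1.12 for Cd2 (adjusted p = 0.00162). Olr1 went further in the same direction on high fat, with 8.90, 8.86, 9.38 and 9.57 in knockout and 3.43, 5.22, 4.50 and 4.43 in wild type, and the effects differed by -2.48 ± 0.46 (adjusted p = 0.00295). S100a8 rose by 2.39 ± 0.41 on high fat, and Pnpla3 by 2.07 ± 0.41. Neither S100a8 (adjusted p = 0.722) nor Pnpla3 (0.459) passed the test of a difference between the diets. Of the collagens 15 were higher and none lower on the low fat diet, none was higher and 3 were lower on the high fat diet, and 11 of the 22 chains passed the test of the difference between effects, against 13% of all genes. For MHC class II 5 of 12 passed it, and for T and NK cell genes 7 of 15. High fat wild-type replicate 4 held urothelial transcripts (Upk1a at 11.7), and the fits without it are among the ranges given for each count.

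**Figure D5:**
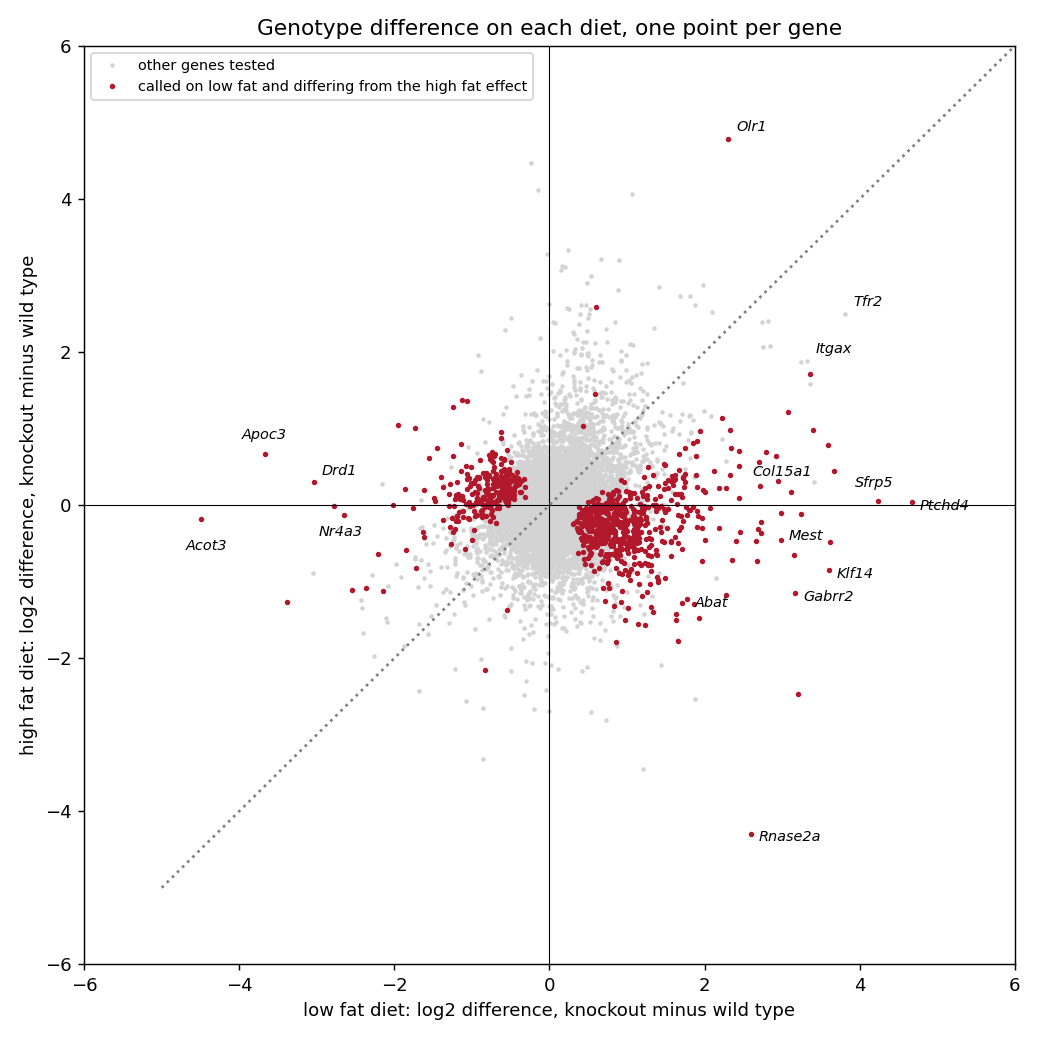
Genotype difference (log2, knockout minus wild type) on the low fat diet (horizontal axis) against that on the high fat diet (vertical axis), 1 point per tested gene, with the 889 genes that were called on the low fat diet and differed from the high fat effect in red. The dotted line marks equal differences. Sfrp5, Ptchd4, Acot3 and Nr4a3 lie near 0 on the high fat axis, Rnase2a far below it, and Olr1 above the line.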

How the data were processed

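The log2 expression values were deposited by the authors as a table of 45037 probe sets on 16 Affymetrix whole-genome mouse arrays. The submitters' processing notes name R 2.11.1 and GCRMA 2.20.0 as the tools that made them. GCRMA subtracts a background modelled from probe sequence, normalizes arrays to each other and summarises probes. Low values therefore depend on the modelled background, and shared loss or gain across all genes is removed. Total RNA was taken up in Trizol and cleaned on columns, and 5 ug was labelled, per the labels' protocols.

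Probe sets with exactly 1 gene symbol (34945) were kept, and each gene was represented by the probe set with the highest mean over all 16 arrays, which gave 18193 genes, 9010 of them with several probe sets. Probe sets with several symbols (932) or none (9160) were not used for genes. The 16 arrays were fitted together with limma 3.58.1 in R 4.3.3 (lmFit and eBayes, 12 residual and 3.84 prior degrees of freedom), with 1 mean a group and contrasts for each genotype difference and for the difference between them. Tests were two-sided. Data were simulated from each gene's mean and within-group spread over the 16 arrays, with 200 of 12078 genes changed in the low fat knockout group. Of genes changed 1.5-fold, 2-fold and 4-fold, 35.8%, 79.1% and 98.5% were recovered. In total 150 genes were called, and 8 of these calls were false. The simulated noise was drawn separately for each gene, without variation shared between genes such as that of the muscle transcripts. Far fewer genes were changed than the 2284 called in the data. The simulation therefore does not give the share of false calls among the 2284.

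Genes were named by rule: the 15 largest rises and the 15 largest falls among called genes whose groups did not overlap, the 6 called genes in each direction with the smallest p for the difference between diets, and up to 4 called members of each list in each direction by p. Not every gene the rule reaches is printed, and Copg2, Acot2, Csf1r and S100a9 were chosen after their values were seen. The comparison and the 53 gene lists (1099 of 1209 entries matched a gene) were chosen with earlier results of these data known. Lists share members, so their counts are not separate. Among others, Ctss is on the MHC class II and lipid-loaded macrophage lists. Itgax is on the macrophage and complement lists, and Thy1 on the T and NK cell and progenitor lists. Alternatives covered the filter, scaling, probe set choice, variance prior, array weights, threshold, replicate block and leaving out arrays. The alternative without the 5 arrays with muscle transcripts was chosen after seeing the data.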

Additional observations from a re-analysis of the deposited data

Results flagged for a closer look

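In 11 of 220 groups of 4 arrays 1 array stood far from the other 3, and chance flags about 5% of groups. Among knockout low fat arrays these were Gabrr2 in replicate 2 (9.05), Ptgds in replicate 4 (6.29), Col5a3 in replicate 3 (9.97), Emp1 in replicate 1 (12.16) and H2-Aa in replicate 4 (11.88). Among wild-type low fat arrays they were Itgax (5.25) and Flvcr2 (8.27) in replicate 1, and Olr1 (2.98), Cdc6 (4.13), Gpam (12.58) and Insr (10.99) in replicate 2.

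For 67 of the 110 genes followed over the alternatives, the low fat genotype difference minus the high fat one passed the limma test of the difference itself. The genes with opposite calls on the 2 diets were Rnase2a (6.89), Gabrr2 (4.33), Abat (3.01), H2-DMb2 (2.37), Cd2 (2.06), Rap1gap2 (1.96) and C6 (1.89), all higher in knockout on low fat, and Apoc2 (-2.51) and Npc1 (-2.19), lower in knockout on low fat. Among genes called on the low fat diet alone, the differences were 4.64 for Ptchd4, 4.46 for Klf14, 4.19 for Sfrp5, 3.81 for Pkp1, 3.45 for Mest, 3.36 for Prkag3, 3.22 for Atp1a4, 2.94 for Col15a1, 2.81 for Plppr4, 2.47 for S100b and 2.42 for Bcat1. Matrix and stromal genes followed with 1.79 for Adamts5, 1.64 for Col5a3, 1.45 for Col6a2, 1.42 for Pi16, 1.27 for Emp1, 1.15 for Col6a1, 0.94 for Cd34, 0.76 for Rgs5 and 0.86 for Sod3. Immune and acute-phase genes had 2.46 for Siglecf, 2.06 for Ccl12, 1.91 for Gzma, 1.74 for Ccl24, 1.72 for Klrd1, 1.49 for Ccr2, 1.30 for Serpina3n, 1.28 for Cfb, 1.28 for H2-DMa, 1.20 for Lbp, 1.01 for Ddx58, 0.92 for Tnfaip3 and 0.66 for H2-Aa. The remaining positive differences were 1.78 for Cdc6, 1.66 for Dio2, 1.44 for Mogat2, 1.27 for Cavin3, 1.26 for Npr3, 1.15 for Lep, 0.95 for Copg2 and 0.70 for Jun.

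Negative differences among genes that fell on the low fat diet alone were -4.33 for Apoc3, -4.30 for Acot3, -3.33 for Drd1, -2.76 for Nr4a3, -2.52 for Ptgds, -1.81 for Gucd1, -1.29 for Bcat2, -1.26 for Kcnk3, -1.01 for Mlxipl, -0.99 for Elane and -0.68 for Aacs. Rassf6 (-2.11), Cabp4 (-1.58), Hs3st3b1 (-1.43) and Slc43a1 (-1.28) fell on both diets, and more on low fat. Lipf (1.64) rose on both diets and more on low fat, and Olr1 (-2.48) rose on both and more on high fat.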

How the results depend on the processing

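None of the 110 genes followed over the alternatives changed sign under any of them. Among the 2284 calls 13 had the opposite sign with values floored at a log2 of 4, and 6 had it with the mean of a gene's probe sets. The balance of all calls did turn with scaling, as given below. Fitting the 8 low fat arrays alone gave 1292 calls (881 higher, 411 lower), with 4 fatty acid oxidation genes and 2 branched-chain amino acid genes lower. Without the 5 arrays with skeletal muscle transcripts, which leaves fewer samples, 845 genes were called (607 higher, 238 lower), 765 of them among the 2284, and none with the opposite sign. The counts there were 8 collagens, 1 MHC class II gene and 1 T or NK cell gene higher, 3 fatty acid oxidation genes and 0 branched-chain amino acid genes lower, and 424 genes that differed between the diets. At a threshold of 0.01 there were 1060 calls (717 higher, 343 lower), 576 genes that differed between the diets, 4 T or NK cell genes higher, 3 fatty acid oxidation genes and 2 branched-chain amino acid genes lower. Array weights raised the genes that differed between the diets to 2481, and the cause was not tested. Leaving out 1 array at a time gave 1426 to 3075 calls (947 to 1636 higher, 479 to 1439 lower) and 1098 to 2382 genes that differed between the diets. The lowest totals were 1426 without knockout replicate 1 and 1515 without knockout replicate 2. The number of lower calls was 479 and 530 without these, 491 without wild-type replicate 1 and 1439 without wild-type replicate 2. Over the same fits 12 to 16 collagens, 9 to 11 fat mass genes, 6 to 9 MHC class II genes and 4 to 7 T or NK cell genes were higher, 3 to 12 fatty acid oxidation genes and 2 to 8 branched-chain amino acid genes were lower, and the Sirt1 difference lay between -0.327 and -0.0393. No filter, a filter at a log2 of 6, floored values, another variance prior and the mean of a gene's probe sets gave 1993 to 2606 calls. Median centring and quantile normalization moved the share of higher calls to 47.5% and 47.4%, against 61.7%, and the median of all genes to -0.0188 and -0.0181. Same-numbered arrays did not deviate together (24 pairs, r from -0.321 to 0.199, 5 over 0.1), and a fit with the replicate number as a block called 2118 genes, 2027 of them shared. Of the 104 called genes among the 110 followed (Prf1 and Mcpt4 not included), 80 kept their call under every alternative at the threshold of 0.05. Without the muscle-bearing arrays 23 lost it. Kit, not among these, lost it with the 8 low fat arrays alone and in the fits given above. Trhde (adjusted p = 0.054), Mlxipl (0.0514) and Ppargc1a (0.0917), which are among the 23, also lost it with the 8 low fat arrays alone. At 0.01, 5 were not called (Acot1, Trhde, Pi16, Ppargc1a and Kit). All 50 further tested probe sets of 34 of these genes had the same sign, and 40 were called. The size of the difference could vary between probe sets. It was smaller for Ptchd4 (1.04 against 4.68) and Tfr2 (2.16 against 3.82), and larger for Npr3 (2.26 and 2.24 against 1.20). Values under about 4 lie in the range set by the background model, which limits fold changes there.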

Other observations

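Probe sets with no gene symbol had another balance of directions. Of 3299 that passed the same filter 601 were called in the low fat comparison, with 156 higher and 445 lower in knockout.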
